A study of Danio rerio with 6 samples.

Results

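miR-140 and miR-455 are microRNAs known from cartilage, and both were measured in ZF4 cells, a fibroblast line from zebrafish embryos, during cold acclimation. They were taken by name from a table of 414 miRNAs, of which 349 are known, as the 3 rows dre-miR-140-5p, dre-miR-140-3p and dre-miR-455-5p. All 3 passed the filter on low values, a mean above 1.5 TPM. The table also holds dre-miR-455-3p and dre-miR-455-2-5p, which are set beside them as the 2 other rows of miR-455. Small RNA was sequenced from 3 ZF4 samples held for 30 days at 18°C (cold acclimated cells) and from 3 samples grown at 28°C (control cells). The labels give no duration for the control cells, for which the abstract of the paper states 30 days. All 6 samples share the wild-type cell line, the medium and 5% CO2, and the cells for cold acclimation were moved to 18°C on the day after seeding. The samples are labelled as biological replicates, but the labels do not say whether they came from separate cultures. If they did not, the p-values measure only the spread between these samples.

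Each miRNA hairpin is cut into a short duplex, and either strand of it, named 5p or 3p after its arm, can be loaded into an Argonaute protein and direct it to matching mRNAs. In the mouse, miR-140 is made in cartilage under the control of Sox9, the main transcription factor of chondrocytes, and mice without it have short bones and an altered skull. In zebrafish embryos miR-140 restrains platelet-derived growth factor signalling in the cranial neural crest that forms the palate. miR-455 is transcribed with the collagen gene COL27A1 in human and mouse and accumulates in chondrocytes. In the RefSeq annotation of the zebrafish assembly GRCz12tu, which is not the build used by the authors, the span of mir140 lies inside that of wwp2, which encodes a ubiquitin ligase. The span of dre-mir-455-1 lies inside that of col27a1b, and the span of mir455b (also named dre-mir-455-2) inside that of col27a1a, both of which encode fibrillar collagen chains. The names do not show which of both hairpins the reads of dre-miR-455-3p came from.

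Levels are in TPM, which here means the reads of a miRNA per 1000000 miRNA reads of its library, with no length term. The libraries held 11748241 to 13966282 miRNA reads in cold acclimated cells and 13710892 to 14960610 in control cells, so 1 read was worth 0.0668 to 0.0851 TPM. TPM is a share of the miRNA reads, and fewer cells holding a miRNA cannot be told apart from fewer copies per cell. Marker miRNAs were set beside the label of a fibroblast line, as a description only. The 7 mesenchymal markers, which include dre-miR-21 and both strands of dre-miR-199, summed to between 444974 and 467445 TPM in cold acclimated cells and between 436330 and 448115 TPM in control cells. dre-miR-21 carried this sum, with 395158 ± 22578 TPM in cold acclimated cells and 390449 ± 5408 TPM in control cells (SD, n = 3 each). Rarer markers such as dre-miR-214 therefore hardly move it. The median log2 fold change of the 7 was -0.68. At an adjusted p under 0.01 from limma, 1 of them, dre-miR-199-3p, fell in cold acclimated cells while 0 rose. Of all miRNAs tested, 31.0% were called. Without control replicate 3, described below, dre-miR-145-5p (-1.82), dre-miR-199-5p (-1.14) and dre-miR-214 (-2.20) were called lower too, where 44.2% of all were called. That fit is not given here for dre-miR-21, dre-miR-143 and dre-miR-22a-3p. The part of the 7 markers in the results on miR-140 and miR-455 was not tested. Epithelial markers summed to between 95.2 and 129.9 TPM in cold acclimated cells and between 98.9 and 189.5 TPM in control cells. Neural, blood, muscle and liver markers each summed to at most 20.5 TPM in cold acclimated cells and 17.2 TPM in control cells. The muscle miRNAs dre-miR-1 and dre-miR-206-3p did not exceed 0.201 and 0.207 TPM in any library. The muscle miRNA dre-miR-133a-3p ranged from 1.87 to 5.21 TPM. Control replicate 3 stood apart from the other controls in some miRNAs. For 13 of the 310 miRNAs tested it lay below both other controls by a log2 difference past 1, and for 5 it lay above both by as much. The same count was not made for the other libraries. One of the 13 was dre-miR-455-5p, so values without this library are given beside several results that it moves.

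The miR-140 strands were the most abundant of the set, and the 3p strand far outnumbered the 5p strand. dre-miR-140-3p had 891, 975 and 759 TPM in the 3 cold acclimated libraries, against 1296, 1258 and 1208 TPM in the 3 control libraries. Every cold acclimated library lay below every control library, and the lowest was cold replicate 3. Among the 349 known miRNAs it ranked between 47 and 49 in cold acclimated cells and between 40 and 41 in control cells. dre-miR-140-5p had 93.6, 94.99 and 76.5 TPM in cold acclimated cells, against 81.0, 90.2 and 98.6 TPM in control cells. These groups overlapped over most of their range, with the lowest value in a cold acclimated library and the highest in a control library. dre-miR-455-5p was the rarest row, at 12.2, 14.04 and 8.52 TPM in cold acclimated cells, against 13.2, 13.8 and 1.79 TPM in control cells. Its groups overlapped too, and 1 control library held far less of it than any other library.

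**Figure D1:**
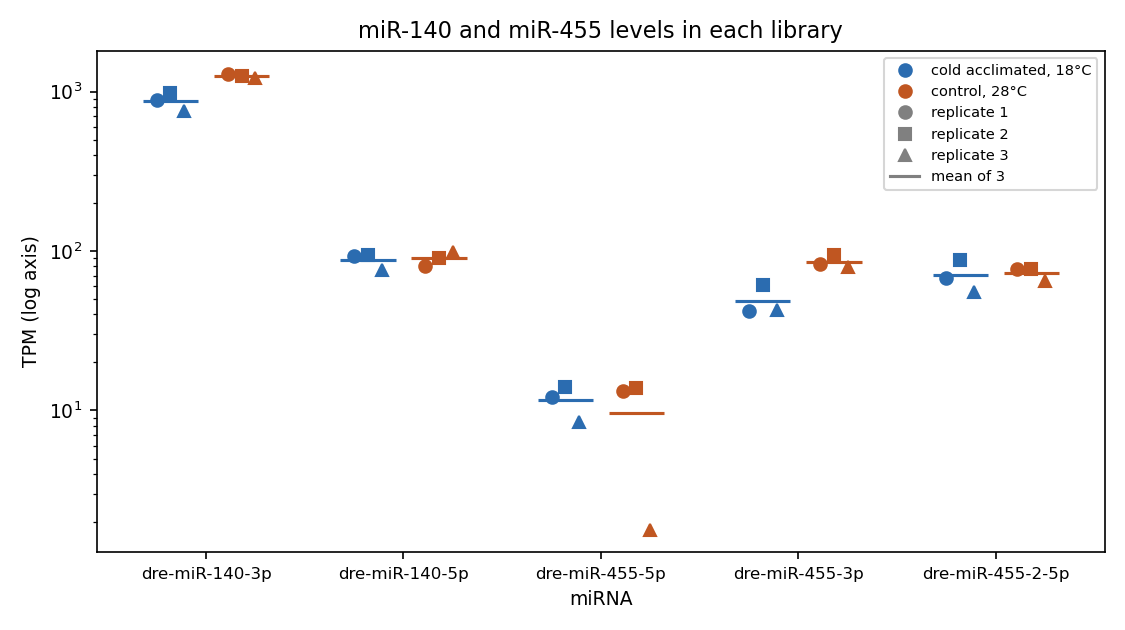
TPM (log axis) of the 5 rows of miR-140 and miR-455 in each of the 6 libraries, cold acclimated cells in blue left of control cells in orange, with a symbol for each replicate and a line at the mean of the 3 libraries. dre-miR-140-3p lay between 759 and 975 TPM in the cold acclimated libraries and between 1208 and 1296 TPM in the control libraries, while the 1.79 TPM of dre-miR-455-5p in control replicate 3 lies far under its other values.

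The 2 other rows of miR-455 had levels nearer to that of dre-miR-140-5p. dre-miR-455-3p had 42.2, 61.4 and 42.5 TPM in cold acclimated cells, against 82.8, 94.5 and 79.9 TPM in control cells. All its cold acclimated libraries lay below all its control libraries. dre-miR-455-2-5p, the 5p strand of the second hairpin, had 68.0, 88.0 and 55.3 TPM in cold acclimated cells, against 77.2, 77.6 and 65.0 TPM in control cells, and these groups overlapped. In order of their means in cold acclimated cells, dre-miR-140-3p stood at 875 ± 109 TPM, dre-miR-140-5p at 88.4 ± 10.3, dre-miR-455-2-5p at 70.4 ± 16.5, dre-miR-455-3p at 48.7 ± 11.0 and dre-miR-455-5p at 11.6 ± 2.81 TPM (SD, n = 3 each). In control cells the means were 1254 ± 44.1 TPM for dre-miR-140-3p, 89.9 ± 8.78 for dre-miR-140-5p, 85.8 ± 7.73 for dre-miR-455-3p, 73.3 ± 7.14 for dre-miR-455-2-5p and 9.60 ± 6.77 TPM for dre-miR-455-5p (SD, n = 3 each). The ranges of neighbours among the 3 middle rows overlapped over the libraries of a condition. The exception was that all control values of dre-miR-455-3p lay above all those of dre-miR-455-2-5p. Within each cold acclimated library, dre-miR-455-2-5p lay above dre-miR-455-3p and below dre-miR-140-5p. The first and the last place of the order were separated from the rest in every library.

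Whether cold acclimation changed these levels was tested with limma on log2(TPM + 1) over the 310 miRNAs with a mean above 1.5 TPM, at an adjusted p under 0.01. The study set the same limit on the adjusted p, but tested with DESeq and also required a minimum fold change and a minimum mean expression. Its test and its fold change limit were not applied here. dre-miR-140-3p was lower in cold acclimated cells but missed the threshold, with a mean TPM 0.698 times that of control cells and a log2 fold change of -0.53 (limma, adjusted p = 0.0148, 95% interval -0.86 to -0.19, standard error 0.15). Without control replicate 3 it passed, at -0.55 (limma, adjusted p = 0.00464). It also passed per 1000000 clean reads (all reads left by the authors' filters), at -0.83 (limma, adjusted p = 0.00109), a scaling that moved the median of all miRNAs tested by -0.25. With scaling by the median ratio of each library to the mean library it passed at -0.62 (limma, adjusted p = 0.00218). That scaling moved the median of all miRNAs tested by -0.08. Over all alternatives its adjusted p lay between 0.00109 and 0.0577, and the sign was negative in each.

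dre-miR-140-5p, from the same hairpin, gave a log2 fold change of -0.03 (limma, adjusted p = 0.928, standard error 0.19) and a 95% interval of -0.44 to 0.39. The sign of so small a value was not stable, at 0.04 without control replicate 3 and 0.07 without cold replicate 3. Leaving out cold replicate 3 moved the median log2 fold change of all miRNAs tested by 0.14. dre-miR-455-5p had a log2 fold change of 0.56 with a wide 95% interval of -0.67 to 1.79 (limma, adjusted p = 0.430, standard error 0.55). With 0.1 or 5 added to the TPM in place of 1, the value was 0.70 or 0.31. Control replicate 3 decided its sign: without that library the value was -0.23 (limma, adjusted p = 0.460, 95% interval -0.76 to 0.30, standard error 0.25).

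Of the 3 rows, 0 were called by limma at the adjusted p, and 1 of 3, dre-miR-140-3p, had an unadjusted p under 0.05 (0.00568), as had 56.1% of all miRNAs tested. At the adjusted p, 31.0% of all were called, 51 higher and 45 lower in cold acclimated cells. Libraries of both groups did not overlap in 1 of the 3 rows, against 58.1% of all miRNAs tested. Without control replicate 3, dre-miR-140-3p was the 1 of 3 called, where 44.2% of all miRNAs tested were called.

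Of the other miR-455 rows, dre-miR-455-3p fell in cold acclimated cells. Its mean TPM was 0.567 times that of control cells, and its log2 fold change was -0.82 (limma, adjusted p = 0.00947, 95% interval -1.29 to -0.36, standard error 0.21). This call lay just inside the threshold. It was lost without control replicate 1 (adjusted p = 0.0242 from limma), without control replicate 2 (0.0383), without cold replicate 1 (0.0516) and without cold replicate 3 (0.0280), and over all alternatives the adjusted p lay between 0.00153 and 0.0516. dre-miR-455-2-5p gave -0.08 on the same scale (limma, adjusted p = 0.817, 95% interval -0.56 to 0.40, standard error 0.22), and its sign turned to 0.08 without cold replicate 3. The median of all miRNAs tested moved by 0.14 without that library.

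The strands of one hairpin can be compared within a library, where the scaling of the library cancels. There were 9.52, 10.3 and 9.92 reads of dre-miR-140-3p for each read of dre-miR-140-5p in cold acclimated cells, against 15.999, 13.9 and 12.3 in control cells. All cold acclimated libraries lay below all control libraries, and they were closer to each other than the control libraries were. The mean ratio was 9.90 ± 0.371 in cold acclimated cells and 14.1 ± 1.87 in control cells (SD, n = 3 each; exact two-sided permutation test, p = 0.1, which is the lowest that 3 libraries a group can reach). As a share of all miR-140 reads, the 5p strand held 9.18% ± 0.313 in cold acclimated cells and 6.71% ± 0.830 in control cells. Both strands together came to 963 ± 118 TPM in cold acclimated cells and 1344 ± 35.4 TPM in control cells (SD, n = 3 each), without overlap between the libraries of both groups. That sum follows the 3p strand, which holds most of it.

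To set this shift beside other hairpins, the same difference, log2(TPM + 1) of the 3p row minus that of the 5p row, was fitted with limma over all 54 pairs of rows named as the arms of one miRNA. For miR-140 the difference was 3.29 ± 0.0541 in cold acclimated cells and 3.79 ± 0.191 in control cells (SD, n = 3 each). The change of -0.50 (standard error 0.16, 95% interval -0.88 to -0.12) did not pass the threshold (limma, adjusted p = 0.0462), and over all alternatives its adjusted p lay between 0.0211 and 0.136. In size it ranked 25 among the 54 pairs, so shifts of this size were common in these libraries. For miR-455, pairing dre-miR-455-3p with dre-miR-455-5p by name, the change was -1.38 (limma, adjusted p = 0.0995, standard error 0.58, 95% interval -2.74 to -0.03). Without control replicate 3 it was -0.64 (limma, adjusted p = 0.0390). Of these 2 pairs, 0 were called by limma and 2 had an unadjusted p under 0.05 (0.0169 for miR-140 and 0.0459 for miR-455). Of all 54 pairs, 18.5% were called and 46.3% had an unadjusted p under 0.05. The libraries of both groups did not overlap in either pair, which held for 51.9% of all pairs.

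**Figure D2:**
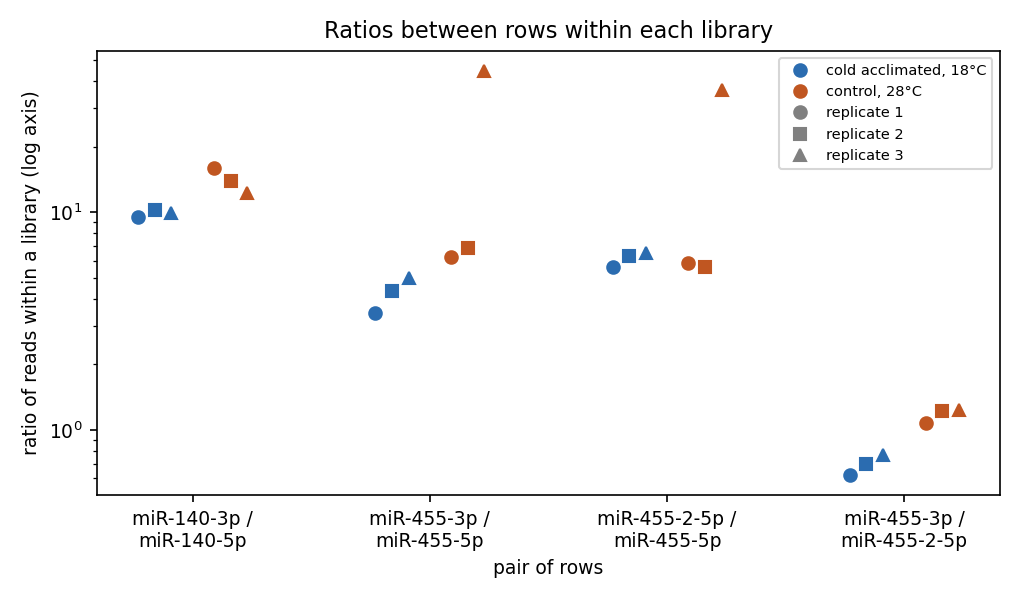
Ratio of reads (log axis) between 2 rows within each library, cold acclimated cells in blue left of control cells in orange, with a symbol for each replicate. The ratio of dre-miR-140-3p to dre-miR-140-5p lay between 9.52 and 10.3 in the cold acclimated libraries and between 12.3 and 15.999 in the control libraries, and both ratios over dre-miR-455-5p are far higher in control replicate 3 (44.6 and 36.3) than elsewhere.

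The ratios of the miR-455 rows show where control replicate 3 differed. There were 3.46, 4.37 and 4.98 reads of dre-miR-455-3p for each read of dre-miR-455-5p in cold acclimated cells, against 6.26, 6.86 and 44.6 in control cells. Between the 5p rows of both hairpins, dre-miR-455-2-5p over dre-miR-455-5p, the ratio was 5.59, 6.27 and 6.49 in cold acclimated cells, against 5.83, 5.63 and 36.3 in control cells. Apart from control replicate 3, dre-miR-455-5p therefore held a like share of the reads of both 5p rows at both temperatures. That share was 15.2%, 13.8% and 13.4% in cold acclimated cells, against 14.6%, 15.1% and 2.68% in control cells.

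A ratio that leaves dre-miR-455-5p out, dre-miR-455-3p over dre-miR-455-2-5p, was chosen after its values were seen and joins rows that may come from different hairpins. It was 0.620, 0.697 and 0.768 in cold acclimated cells, against 1.07, 1.22 and 1.23 in control cells. dre-miR-455-3p thus had fewer reads than dre-miR-455-2-5p in each cold acclimated library and more in each control library. The mean was 0.695 ± 0.0741 in cold acclimated cells and 1.17 ± 0.0873 in control cells (SD, n = 3 each; exact two-sided permutation test, p = 0.1, the smallest possible). Control replicate 3 did not stand apart in it. Such a separation was common, since the libraries of both groups did not overlap in 51.9% of all 54 arm pairs. The ratio also largely repeats the fall of dre-miR-455-3p given above, as dre-miR-455-2-5p changed by only -0.08 on the log2 scale.

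The low level of dre-miR-455-5p in control replicate 3 was beyond counting error. The library held 26 reads of it, and the 95% exact binomial interval of its level was 1.17 to 2.63 TPM, which covers counting error only. The same interval ran from 11.5 to 15.2 TPM in control replicate 1 and from 11.9 to 15.9 TPM in control replicate 2. On log2(TPM + 1), control replicate 3 differed from the mean of the other controls by -2.38 for dre-miR-455-5p, which ranked 4 from the lowest among the 310 miRNAs tested. dre-miR-140-3p, dre-miR-140-5p, dre-miR-455-3p and dre-miR-455-2-5p differed from the other controls by -0.08, 0.20, -0.14 and -0.25 in this library. Other miRNAs were low in it as well, and with dre-miR-455-5p they made 13 of the 310 tested by a log2 difference past 1. Of the 7 mesenchymal markers, 4 were as low by the same limit, among them dre-miR-143, with 374 TPM in control replicate 3 and 4765 and 4665 TPM in control replicates 1 and 2. The summed level of all 7 did not show this, since dre-miR-21 holds most of it. The marker dre-miR-199-3p missed the limit narrowly (-0.96), and the markers dre-miR-21 and dre-miR-22a-3p were not as low. Rows outside the markers were, among them dre-miR-430a-3p, dre-miR-430b-3p, dre-miR-430c-3p and dre-miR-135c. The part of these miRNAs in the level of dre-miR-455-5p was not tested.

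**Figure D3:**
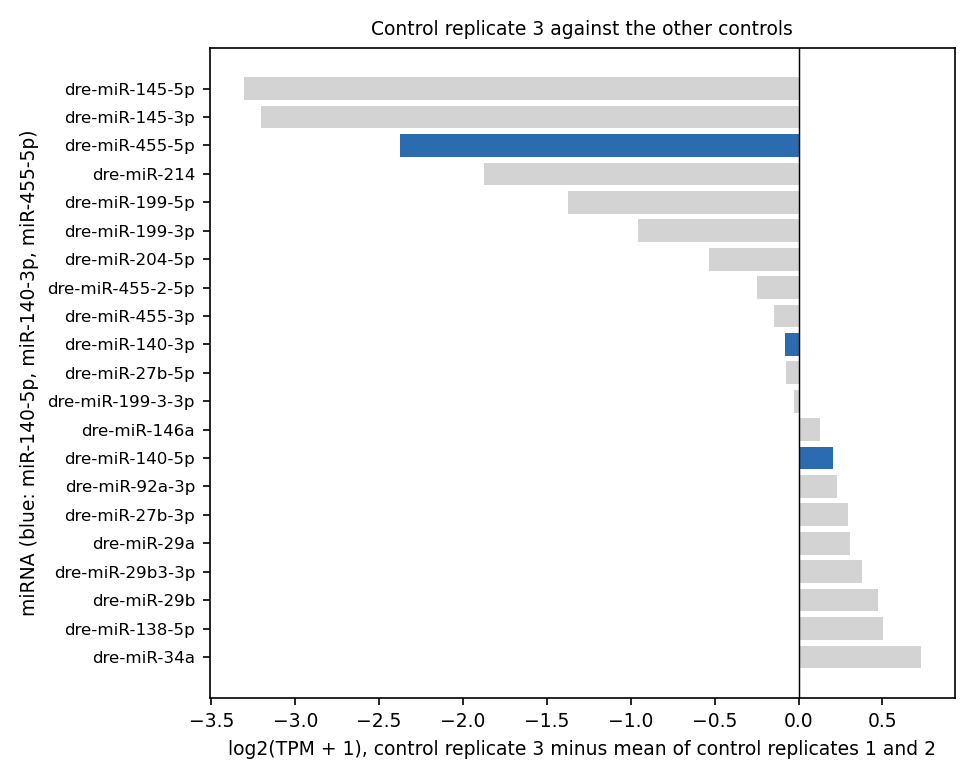
Difference in log2(TPM + 1) between control replicate 3 and the mean of control replicates 1 and 2 for the 21 tested miRNAs of the cartilage and bone list, 1 bar each, with dre-miR-455-5p, dre-miR-140-3p and dre-miR-140-5p in blue. dre-miR-455-5p (-2.38) sits beside both strands of dre-miR-145 (-3.31 and -3.20), while both strands of miR-140 lie near 0.

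The miRNAs whose profiles over the 6 libraries were closest to each row were sought among 240 known miRNAs, as a description only. Closeness was the smallest root mean square difference of centred log2(TPM + 1). Patterns that a row shares with its neighbours follow from this choice. Groups without overlap were found in 58.1% of all miRNAs tested. dre-miR-140-3p was closest to dre-miR-30d (0.071), dre-miR-210-3p (0.094), a miRNA induced by low oxygen, and dre-miR-24 (0.10). In each of these, as in dre-miR-140-3p, every cold acclimated library was below every control library, for example 3563, 3603 and 3053 TPM in cold acclimated cells, against 5449, 5424 and 4770 TPM in control cells, for dre-miR-30d. dre-miR-140-5p was closest to dre-miR-30c-5p (0.055), dre-miR-20a-3p (0.095) and dre-miR-27e (0.099), none of which separated the groups. dre-miR-455-5p had no neighbour as close. Its nearest were dre-miR-430b-3p (0.22), dre-miR-135c (0.32) and dre-miR-430c-3p (0.40), and all of them were low in control replicate 3. dre-miR-430b-3p, of the miR-430 family that clears maternal mRNAs in the zebrafish embryo, had 192, 217 and 153 TPM in cold acclimated cells, against 144.4, 182 and 31.7 TPM in control cells.

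A list of miRNAs with known roles in cartilage and bone, in which all 5 rows of miR-140 and miR-455 are included, held calls in both directions. The list holds 26 rows, of which 21 were tested, 2 rose and 3 fell in cold acclimated cells. These 5 of 21 compare with 31.0% called among all miRNAs tested, 51 higher and 45 lower. For the 21 rows the median log2 fold change was -0.11, against 0.02 for all 310 miRNAs. Those that rose were dre-miR-34a (1.33 on the log2 scale, limma, adjusted p = 0.00578), a target of p53, and dre-miR-27b-5p (0.85, limma, adjusted p = 0.00260), the partner strand of dre-miR-27b-3p, which targets the collagenase gene MMP13 in human chondrocytes. The strand dre-miR-27b-3p itself was not called (0.29, limma, adjusted p = 0.141). dre-miR-34a had 219.3 ± 73.7 TPM in cold acclimated cells and 85.3 ± 27.1 TPM in control cells (SD, n = 3 each). Beside dre-miR-455-3p, those that fell were both 3p rows of miR-199, which restrains the BMP mediator Smad1 in mouse cells. The 5p row, dre-miR-199-5p, was not called (-0.68, limma, adjusted p = 0.102). dre-miR-199-3p changed by -1.04 on the log2 scale (limma, adjusted p = 0.00631), with 2307 ± 186 TPM in cold acclimated cells and 4968 ± 1705 TPM in control cells (SD, n = 3 each). dre-miR-199-3-3p changed by -0.79 (limma, adjusted p = 0.00260), with 502 ± 62.3 TPM in cold acclimated cells and 866 ± 26.2 TPM in control cells (SD, n = 3 each), and was chosen once its values were known. These 4 calls lay near the threshold and kept their signs with 1 library left out. By limma, dre-miR-34a did not pass without control replicates 1 or 2 or cold replicates 1 or 2 (adjusted p up to 0.0305), and dre-miR-27b-5p without control replicate 1 or cold replicates 1 or 2 (up to 0.0134). dre-miR-199-3p passed only with control replicate 3 as the library left out (adjusted p up to 0.0367 without another) and was also lost without the filter on low values (0.0113), and dre-miR-199-3-3p was lost without control replicate 1 or cold replicate 1 (up to 0.0152). Per 1000000 clean reads, neither dre-miR-34a (adjusted p = 0.0111) nor dre-miR-27b-5p (0.0185) passed in limma. The 3 tested rows of miR-29, which targets collagen mRNAs and was picked out with its values known, had log2 fold changes between -0.45 and 0.19, with no call.

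Control replicate 3 weighed on this list. In it, 5 of the 21 tested rows lay under both other controls by a log2 difference past 1, against 13 of all 310 miRNAs tested. These 5 were dre-miR-455-5p, both strands of dre-miR-145, dre-miR-199-5p and dre-miR-214. Of them, dre-miR-145-5p, dre-miR-199-5p and dre-miR-214 are also mesenchymal markers already counted above. Without that library 2 of the 21 rows rose and 9 fell, with dre-miR-140-3p among those 9, while 68 of all 308 miRNAs tested rose and 68 fell. The largest fall of the list was then that of dre-miR-214, which restrains bone formation in the mouse, at -2.20 without control replicate 3 (limma, adjusted p = 1.6e-08) and -1.58 with all libraries (limma, adjusted p = 0.0122). It too was chosen with its values known. Leaving out control replicate 3 raises the control mean of rows picked as low in it, dre-miR-214 among them. Their falls in that fit therefore follow in part from the choice of library.

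**Figure D4:**
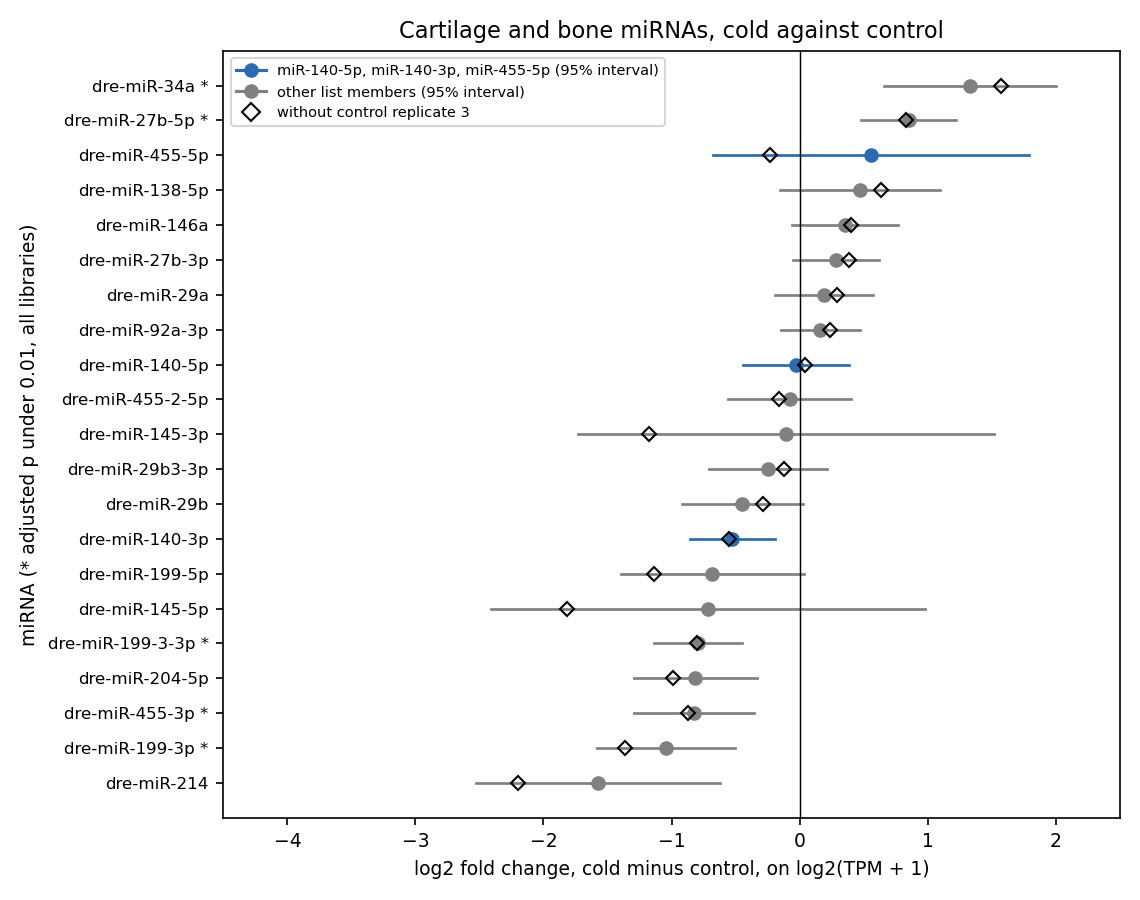
Log2 fold change on log2(TPM + 1), cold acclimated cells minus control cells, of the 21 tested cartilage and bone miRNAs, with 95% intervals from limma over all 6 libraries (filled circles) and the value without control replicate 3 (open diamonds). dre-miR-140-3p stays near -0.53 in both fits, dre-miR-140-5p near 0, and dre-miR-455-5p lies at 0.56 with all libraries and at -0.23 without control replicate 3.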

How the data were processed

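Small RNA libraries of 3 cold acclimated and 3 control ZF4 samples were read at 50 bp from a single end. After trimming of adapters and quality filtering, the authors kept lengths of 17 to 35 nt and aligned the clean reads to miRBase 22 with Bowtie2 2.3.0. The values deposited by the authors are CPM, named TPM by them: reads of a miRNA per 1000000 miRNA reads. They are whole multiples of 1 read (largest deviation 0.0300 reads). The counting of reads that match more than 1 miRNA was not stated in the sources used here. Both miR-455 5p rows may share reads.

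log2(TPM + 1) was fitted with limma 3.58.1 (lmFit, eBayes with a trend) in R 4.3.3 for miRNAs with a mean above 1.5 TPM (about 20 reads), without pairing, with Benjamini-Hochberg adjustment over all of them and a threshold of 0.01. The same fit was made over 54 arm pairs, and single ratios were compared with exact permutation tests. The fits were tested on simulated data with planted changes larger than those of dre-miR-140-3p and dre-miR-455-3p. No simulated library stood apart as control replicate 3 did, so that run does not bear on calls near the threshold. Figures were drawn with matplotlib 3.10.9.

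The members and lists were chosen with earlier results of these data known. Named are the 3 members, both other miR-455 rows, the 3 closest known miRNAs of each member and, of the list, the 2 called with the largest rise and the 2 with the largest fall. Other names fall outside this rule, and only some of them are marked as chosen after their values were seen. Unmarked ones, such as dre-miR-143 and dre-miR-430a-3p, are not to be taken as named in advance. Alternatives were other pseudocounts (0.1, 5), filters (none, 7.5 TPM), scalings, a threshold of 0.05, a replicate block and each library left out. Those of the other list miRNAs and of the ratio of dre-miR-455-3p to dre-miR-455-2-5p were chosen after seeing the data. Clean reads per library, used in 1 scaling, were taken from the paper. No libraries had identical values (0 pairs). The qRT-PCR and transfection data were not analysed here.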

Additional observations from a re-analysis of the deposited data

How the results depend on the processing

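Changes of dre-miR-140-3p and dre-miR-455-3p kept their negative sign under every alternative run, but both lie near the threshold. dre-miR-140-3p passed with median-of-ratios scaling (-0.62), with clean reads as library sizes (-0.83), at an adjusted p of 0.05 (-0.53) and with 1 library left out (-0.61 to -0.43) only without control replicate 3. dre-miR-455-3p did not pass with a pseudocount of 5 (-0.77), without the filter (-0.82) or, with 1 library left out (-0.999 to -0.733), in 4 of 6 cases. With 1 library left out, dre-miR-140-5p ranged from -0.10 to 0.072, dre-miR-455-2-5p from -0.25 to 0.082 and dre-miR-455-5p from -0.23 to 0.97. With clean reads dre-miR-140-5p was at -0.33 and dre-miR-455-2-5p at -0.37, and with median-of-ratios scaling at -0.12 and -0.17, with no call. The miR-140 arm change (-0.50) passed only at an adjusted p of 0.05. The miR-455 arm change was -1.53 with a pseudocount of 0.1 and -1.08 with 5, with no call. The number of miRNAs higher was 51 and became 32 with clean reads and 24 to 68 with 1 library left out, and the number lower was 45 and became 77 with clean reads, 77 at an adjusted p of 0.05, 67 with median-of-ratios scaling and 18 to 68 with 1 library left out. Clean reads shifted the median log2 fold change of all miRNAs by -0.25, and values under that scaling are read relative to it. Median-of-ratios scaling shifted that median by -0.08, leaving out cold replicate 2 by -0.07 and leaving out cold replicate 3 by 0.14. The cause of these changes was not tested.

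Libraries share replicate numbers, but their deviations from the group means correlated weakly (0.015, 0.14 and 0.060 for numbers 1, 2 and 3, each the best match of both libraries), so they were not taken as pairs. With a replicate block, 39 miRNAs were higher and 30 lower, and neither dre-miR-455-3p (-0.82, adjusted p = 0.0118 from limma) nor dre-miR-34a (1.33, adjusted p = 0.0223) passed. Calls of the 3 members did not change with it. The miR-455 arm change stayed at -1.38 with the block, with a smaller standard error of 0.39 (adjusted p = 0.0323 from limma). For the miR-140 arm change the adjusted p was 0.0804 in the same fit, and neither was called. Count-based tests were not run. Too few low values were present in a column for the formal check of recovered reads, so reads and their binomial intervals rest on the values being whole multiples of the lowest value of each library. The rarest row, dre-miR-455-5p, rests on 26 to 198 reads per library.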
